A study of Mus musculus with 27 samples.

Results

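The comparison described here is the knockdown of MOF by RNA interference (RNAi) in PGK12.1, a female line of mouse embryonic stem (ES) cells. It rests on the 3 arrays titled as MOF RNAi and the 3 titled as control RNAi of the same numbered experiments, 6 of the 27 arrays of the series. Described are all genes named by a probeset with 1 gene symbol whose mean log2 value over these 6 arrays was at least 6. They number 12649 of 19938 named genes, and each is represented by the probeset with the highest mean. Just inside that limit, 430 genes had a mean from 6 to 6.1, and just outside it 398 genes had a mean from 5.9 to 6. PGK12.1 was derived from blastocysts that a 129 mother bore to a (129 X PGK)F1 father, and was used undifferentiated at passages 14 to 18. The cells were kept with leukemia inhibitory factor (LIF) on mouse embryonic fibroblast feeders, which were depleted on gelatin before transfection. In each experiment the cells received 100 pmol of siRNA for 48 h, against MOF or a negative control sequence. In experiments 1 and 2 both arms had another round with 400 pmol for 24 h, and in experiment 3 there was 1 round. Each experiment therefore gives a pair of 1 MOF and 1 control array, and the question is which transcripts moved in all 3 pairs. The labels describe separate RNAi experiments in 1 cell line. The p-values measure the spread between arrays of the same group, estimated over all 27 arrays of the series, and not between lines or animals.

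MOF, encoded by Kat8, acetylates lysine 16 of histone H4, a mark of open and active chromatin. It works in the MSL complex, known from dosage compensation of the fly X chromosome, and in the NSL complex, which sits at promoters of broadly expressed genes. ES cells depend on MOF for self-renewal, and mouse embryos without it die before or around implantation.

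Kat8 was lowered in every experiment. Its log2 values were 8.42, 8.47 and 9.05 in the control arrays of experiments 1, 2 and 3 and 7.05, 7.23 and 7.99 in the MOF arrays. The groups did not overlap, since the highest MOF array lay below the lowest control. Transcript left was 38.7%, 42.3% and 48% of the paired control, so that the pair with 1 round kept the most. The mean fall was by 1.22 on the log2 scale (SE 0.07, 3 against 3 arrays, limma adjusted p = 3.85e-09). This fit of group means has no term for the pair, and its spread is shared by all 27 arrays, as for every SE and p-value below unless the block is named. With the experiment as a block the SE was 0.06 (limma adjusted p = 1.68e-08). Both arrays of experiment 3 had higher Kat8 values than the arrays of the same treatment in experiments 1 and 2, and the array medians of experiment 3 were higher too. These medians were 6.23 to 6.3 in experiments 1 and 2 and 6.47 and 6.5 in experiment 3. No pair of arrays in the series held identical values. Single arrays are therefore compared within their pair below.

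The label of an undifferentiated female ES cell was set beside its markers. All 27 pluripotency genes on the list, among them Pou5f1, Nanog and Sox2, passed the level limit, with an average log2 value of 10.5 to 11.1 in controls and 10.4 to 11 in MOF arrays. The Y-linked genes Eif2s3y, Kdm5d and Uty averaged 3.65 to 4.11 on all 6 arrays, below the limit. Of 19 feeder fibroblast markers measured, 11 passed the limit and none was called by limma, nor did any reach an unadjusted p under 0.05. With the experiment as a block Twist1 (-0.06, -0.19 and -0.30) passed as lower. Over all 19 markers the summed log2 level was 111 to 115 in controls and 111 to 116 in MOF arrays. Dcn, Lum and Postn lay under the limit, with means of 4.98, 3.20 and 4.28, while 11 of the 19 lay above it. How much feeder RNA remained was not tested.

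**Figure D1:**
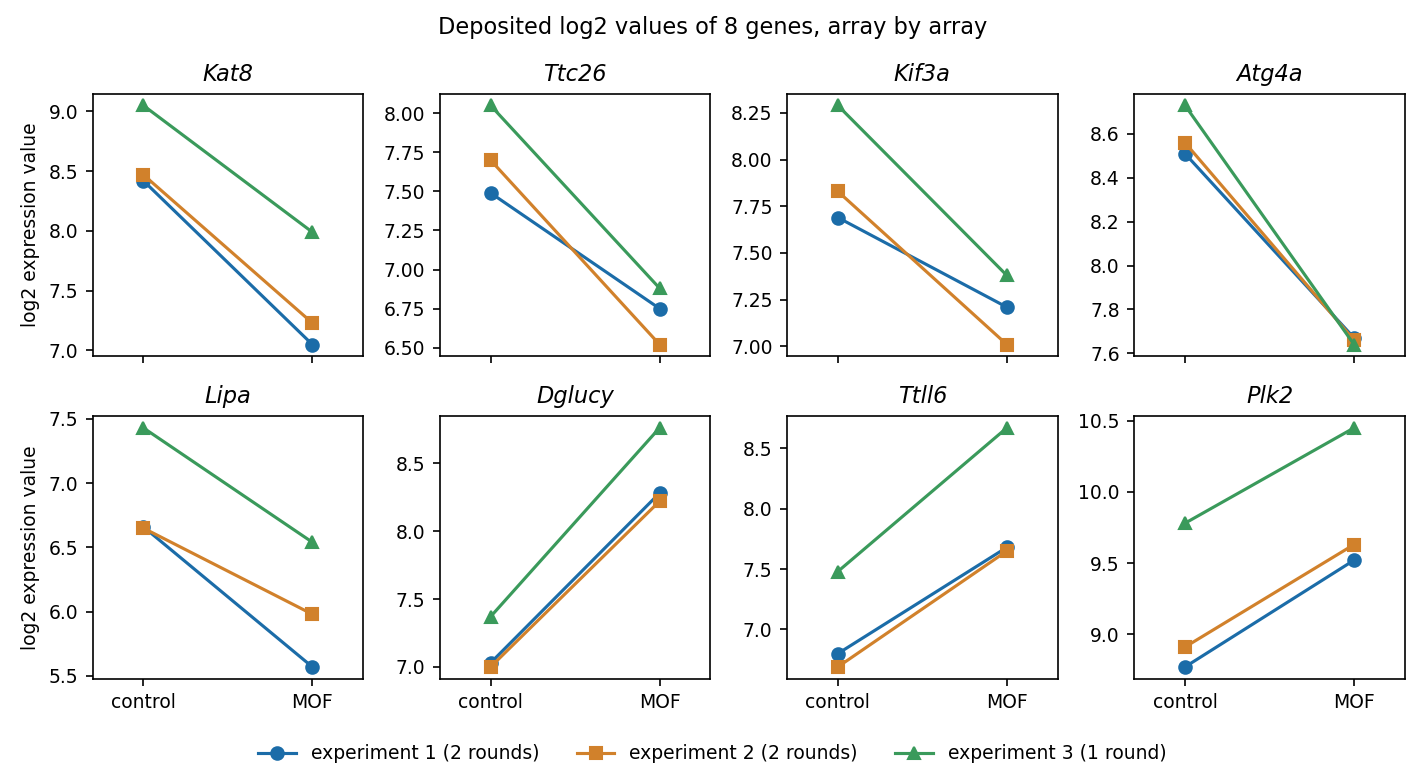
Deposited log2 values of 8 genes in each of the 6 arrays, with lines joining the control and MOF array of an experiment (colours and symbols, 3 experiments). Kat8 falls from 8.42 to 7.05, from 8.47 to 7.23 and from 9.05 to 7.99, and every line of the other 7 genes runs the same way in all 3 experiments.

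MOF knockdown lowered more genes than it raised, and the changes were mostly small. At an adjusted p under 0.05, 1238 of 12649 genes were called (9.79%), of which 422 were higher (3.34%) and 816 lower (6.45%). Their median absolute log2 difference was 0.34, a 1.26-fold change, and 84 genes passed 1.5-fold in the mean (21 higher and 63 lower). In this bulk RNA, fewer cells of a type and less RNA per cell cannot be told apart. The direction split depended on scaling. Higher genes made up 34.1% of calls on the deposited values, 15% (155 of 1033) once each array was centred on its own median, and 48.1% (704 of 1464) once it was centred on the median of the probesets tested. These scalings moved the median of all genes from -0.003 to -0.045 and 0.03. With the experiment as a block, which removes what the arrays of 1 experiment share, 1363 genes were higher (10.8%) and 2042 lower (16.1%), and these included all 1238. Calls were also examined in 9 further fits, each without 1 array or without both arrays of 1 experiment. Losses of calls in these fits or after centring each array on its own median are given beside many genes below, and for others only through the range of their list. A call without such a remark was not always kept.

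The sign held in all 3 pairs for 1231 of the 1238 called genes (99.4%), against 6436 of all genes (50.9%), of which 2897 rose and 3539 fell. The calls were made on the mean difference of these same pairs. Selection by itself therefore favours a common sign, and the 2 shares do not measure replication. The pairs shared no array, and the gene-wise differences correlated at 0.60 between pairs 1 and 2, 0.53 between 1 and 3 and 0.63 between 2 and 3. These are descriptions over 12649 genes, which are not independent and share the probe set of the array. The spread of the differences was similar, with an SD of 0.192, 0.214 and 0.228 in experiments 1, 2 and 3. Of the 7 called genes without a common sign, Scd2, a fatty acid desaturase, Pex3, a peroxisome biogenesis factor, and Ankrd40 were lower in experiments 1 and 2 and not in experiment 3. Acbd6, Adap2 and Tmem126a were lower in experiments 2 and 3 and not in 1, and Dixdc1 was higher in 1 and 3 and not in 2. The array values of the groups did not overlap at all in 887 genes (7.01%).

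A change past 1.5-fold (0.58 on the log2 scale) was found in 124, 191 and 245 genes in pairs 1, 2 and 3. It was shared in 1 direction by all 3 pairs in 34 genes (0.269%), 25 lower and 9 higher. Lower in this way were Kat8, Ttc26, Atg4a, Lipa, As3mt, Gstm5, Tbc1d7, Myd88, Zfp72, Zfp280c, Tex11, Car5b, Spata7, Tbc1d19, Tpmt, Mospd1, Cfl2, Rpgr, Zc4h2, Ndn, Bbs5, BC147527, AI987944, Gm5662 and Gm7982. Higher were Dglucy, Ano3, Ttll6, Ephx2, Plk2, Trp53inp1, Ptpn14, Pidd1 and Dpp4. Dpp4, Gm5662 and Gm7982 did not pass the adjusted p without the experiment as a block and passed it with the block.

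**Figure D2:**
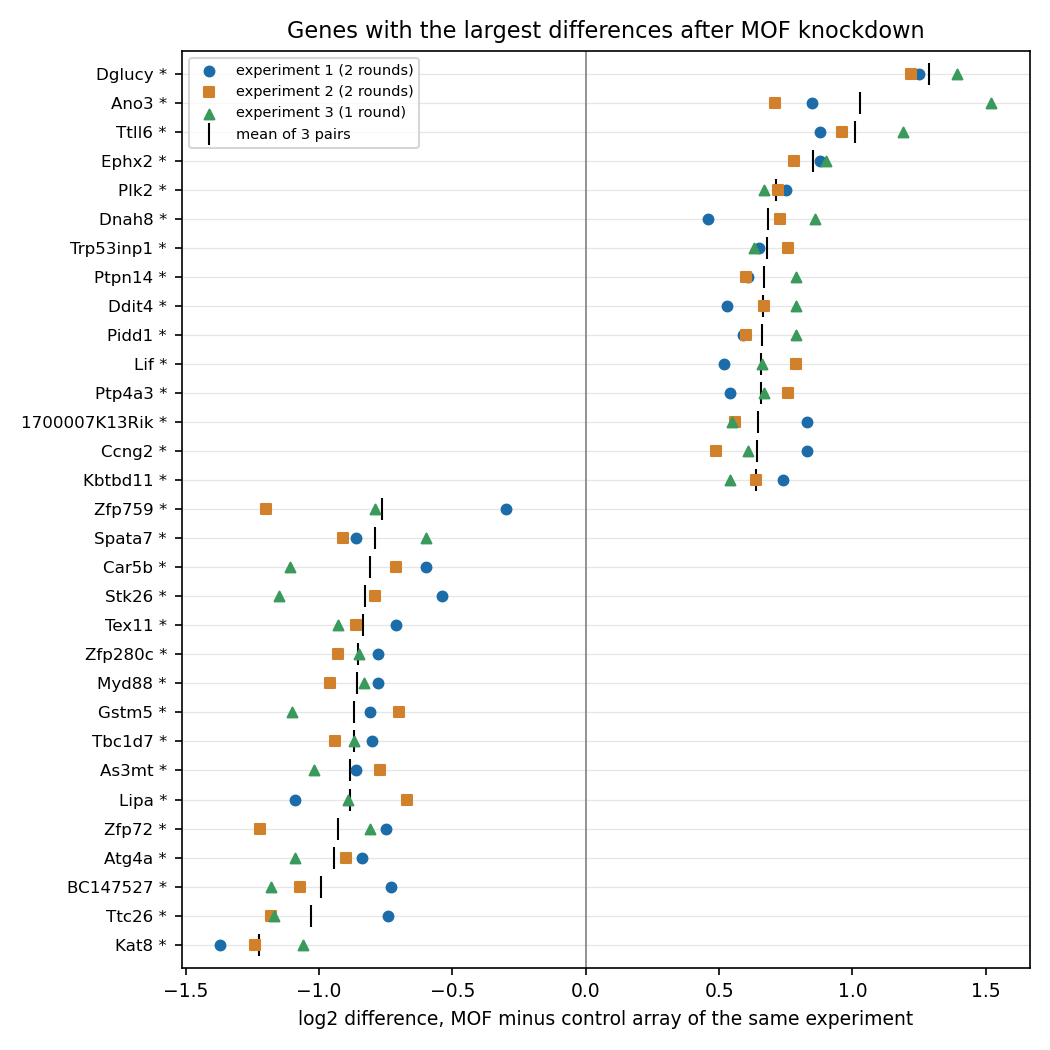
Log2 difference between the MOF and control array of each experiment (symbols) and the mean of the 3 (bars) for Kat8 and the 15 genes with the largest called rise and the 15 with the largest called fall of common sign; asterisks mark an adjusted p under 0.05. Dglucy has the largest mean difference at 1.29, and Zfp759 shows the widest spread among the lower genes, from -0.30 to -1.20.

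Dglucy rose most. It encodes a mitochondrial enzyme that breaks down D-glutamate. Its values were 7.03, 7.00 and 7.37 in the controls and 8.28, 8.22 and 8.76 in the MOF arrays. All MOF arrays lay above all controls, with differences of 1.25, 1.22 and 1.39 (mean 1.29, SE 0.11, adjusted p = 1.17e-06). Ttll6, a tubulin polyglutamylase of cilia, had values of 6.80, 6.69 and 7.48 in controls and 7.68, 7.65 and 8.67 in MOF arrays. Its groups did not overlap either, and the mean rise was 1.01 (SE 0.07, adjusted p = 1.60e-08). Ano3, an anoctamin membrane protein, stood at 5.83, 5.78 and 5.44 in controls and 6.68, 6.49 and 6.96 in MOF arrays. Its rise of 1.03 (SE 0.26, adjusted p = 0.0154) was uneven, at 0.85 and 0.71 in the pairs with 2 rounds and 1.52 in the pair with 1. The call was lost in 5 of the 9 fits with arrays left out, among them each without a whole experiment, and the difference was 0.78 without experiment 3. Another probeset of Ano3 differed by 1.17, 0.66 and 1.18. Dnah8, an axonemal dynein heavy chain, rose by 0.46, 0.73 and 0.86 in the 3 pairs (mean 0.68, adjusted p = 8.04e-05).

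Ephx2, the soluble epoxide hydrolase, rose by 0.88, 0.78 and 0.90 (mean 0.85, SE 0.14, adjusted p = 0.000584). Its control values were 7.61, 7.77 and 8.80 and its MOF values 8.49, 8.55 and 9.70. Here the groups overlapped, because the control of experiment 3 was higher than the MOF arrays of the other experiments, although each pair rose. The phosphatases Ptpn14, a partner of the Hippo pathway, and Ptp4a3 rose by 0.67 and 0.66, and the cytokine gene Lif, whose protein the medium also supplied, by 0.66. Lif differed by 0.52, 0.79 and 0.66 in the pairs. The open reading frame 1700007K13Rik (0.65), the unconventional cyclin gene Ccng2 (0.64) and Kbtbd11 (0.64) closed the list of 15. Ccng2 lost its call in 6 of the 9 left-out fits. For Kbtbd11 another probeset differed by 0.20 only.

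After Kat8, the largest called fall was that of Ttc26, which is described with its transport complex below. Atg4a, an X-linked protease that processes the Atg8 proteins of autophagosomes, stood at 8.51, 8.56 and 8.73 in controls and 7.67, 7.66 and 7.64 in MOF arrays. The groups were well apart, with a mean fall by 0.94 (SE 0.09, adjusted p = 2.99e-06), and the other probeset fell by 0.82. Lipa, the acid lipase that releases cholesterol and fatty acids in lysosomes, had values of 6.66, 6.65 and 7.43 in controls and 5.57, 5.98 and 6.54 in MOF arrays. No MOF array reached a control, and the mean fall was by 0.88 (SE 0.13, adjusted p = 0.000282). As3mt, the arsenic methyltransferase, went from 7.19, 7.20 and 7.25 to 6.33, 6.43 and 6.23. The controls were even, and the fall by 0.88 (SE 0.10, adjusted p = 1.30e-05) separated the groups.

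Tbc1d7, a subunit of the TSC complex that restrains mTORC1, fell by 0.80, 0.94 and 0.87, from 7.48, 7.65 and 8.51 to 6.68, 6.71 and 7.64 (mean difference -0.87, SE 0.10, adjusted p = 1.46e-05). The MOF array of experiment 3 lay within the control range, and each pair fell. Myd88, the adaptor of Toll-like and interleukin-1 receptors, fell from 7.82, 7.90 and 8.22 to 7.04, 6.94 and 7.39. Its groups did not overlap, and the mean difference was -0.86 (SE 0.14, adjusted p = 0.000453). Gstm5, a glutathione transferase, fell by 0.87, the zinc finger gene Zfp72 by 0.93 and BC147527 by 0.99. BC147527, Gstm5 and Zfp72 belong to families of near-identical copies, so that their probes may read relatives too. Spata7, a protein of the photoreceptor connecting cilium, fell by 0.79 and was not called without experiment 1, experiment 2 or control replicate 2. Zfp759 had a mean fall by 0.76 made of unequal pairs (-0.30, -1.20 and -0.79) and was not called without experiment 2.

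In the list of intraflagellar transport (IFT) and BBSome genes, 15 of 30 tested members fell and none rose, where 6.45% of all genes fell and 3.34% rose. IFT trains carry cargo along the axoneme of the cilium, moved outward by kinesin-II and back by dynein-2, and the BBSome links membrane proteins to them. RFX transcription factors act at X-box motifs of ciliary gene promoters. GTTGCC, a core of that motif, was searched on both strands (the other strand reads GGCAAC) from 250 bases before to 50 bases after the most upstream RefSeq start of each gene. It occurred in 13 of 27 IFT and BBSome promoters (48.1%) and in 6 of the 14 with a called fall (42.9%), against 1302 of 10102 promoters of all genes tested (12.9%). Among all genes called lower the share was 16.1%, and among those called higher 10.3%. A match describes the letters only. The 150 bases before the RefSeq start (GRCm38.p6, plus strand) are shown for Ttc26 (chr6:38381374-38381523), Kif3a (chr11:53567219-53567368) and Ift57 (chr16:49699144-49699293), called members that hold the motif, with GTTGCC in capitals.
Ttc26: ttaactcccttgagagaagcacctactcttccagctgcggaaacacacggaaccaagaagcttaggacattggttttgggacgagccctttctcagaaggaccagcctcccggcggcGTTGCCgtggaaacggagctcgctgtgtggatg
Kif3a: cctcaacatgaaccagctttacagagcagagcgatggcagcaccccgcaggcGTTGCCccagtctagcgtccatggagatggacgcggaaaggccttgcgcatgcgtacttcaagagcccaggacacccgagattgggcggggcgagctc
Ift57: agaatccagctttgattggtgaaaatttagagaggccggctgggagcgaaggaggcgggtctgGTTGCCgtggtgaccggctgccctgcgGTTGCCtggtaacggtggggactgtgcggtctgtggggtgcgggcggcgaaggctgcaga

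Of 35 such genes listed, 33 had a named probeset and 30 passed the level limit. Among these 30, none was higher and 15 were lower (50%, against 6.45% of all genes), with a median log2 difference of -0.34 against -0.003 for all genes. The median was -0.28, -0.31 and -0.34 in pairs 1, 2 and 3. In all 3 pairs 22 members fell, against 3539 of all 12649 genes. The members just under the limit, Ttc30a1, Ttc30b and Dync2li1, had means of 5.90, 5.96 and 5.99 and were not tested. The called count was 17 with arrays centred on their medians and 20 with the experiment as a block. It was 6 to 13 with 1 array or experiment left out, and lowest without experiment 2. Ttc26, Kif3a, Kif3b, Ift88 and Bbs5 passed in all 9 left-out fits, and Kifap3 and Bbs2 in none of them nor after centring. Ift57 was lost in 7 of the 9, Bbs4 and Ift80 in 8, Wdr19 and Ttc8 in 5, Ift74 in 4, Bbs9 in 2 and Ift172 in 1.

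Ttc26, the IFT-B subunit also called Ift56, stood at 7.49, 7.70 and 8.05 in controls and 6.75, 6.52 and 6.88 in MOF arrays. The groups did not overlap, with differences of -0.74, -1.18 and -1.17 (mean -1.03, SE 0.13, adjusted p = 5.43e-05). All 3 listed subunits of kinesin-II fell. Kif3a, a motor subunit, went from 7.69, 7.83 and 8.29 to 7.21, 7.01 and 7.38, which left the groups apart (mean -0.74, SE 0.10, adjusted p = 0.000108). Kif3b, its partner, fell by 0.41 (adjusted p = 0.000143) and Kifap3, the accessory subunit, by 0.34 (adjusted p = 0.0302). Dync2h1, the heavy chain of the return motor, differed by -0.09, 0.00 and -0.34 and was not called.

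Of the other IFT-B genes, Ift57 stood at 8.26, 8.36 and 8.59 in controls and 7.74, 7.89 and 8.04 in MOF arrays, again without overlap (mean -0.51, SE 0.13, adjusted p = 0.0146). Ift88 fell by 0.47, Ift172 by 0.42, Ift74 by 0.40 and Ift80 by 0.24. Wdr19, the IFT-A subunit also called Ift144, fell by 0.58, 0.72 and 0.61 (mean -0.64, adjusted p = 0.00767), while other IFT-A members Ift122 (-0.20) and Ift140 (-0.14) were not called. Wdr35, another IFT-A gene, was the sole member higher in all 3 pairs (0.30, 0.11 and 0.38) and was called higher with the experiment as a block. Among BBSome genes, Bbs5 fell by 0.68, Ttc8 (Bbs8) by 0.62, Bbs9 by 0.48, Bbs4 by 0.37 and Bbs2 by 0.27. Ttc8 was uneven across the pairs, at -0.66, -0.31 and -0.88. Ift20, Ift27 and Ift52 had mean differences between -0.01 and 0.003 with pairs of either sign.

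**Figure D3:**
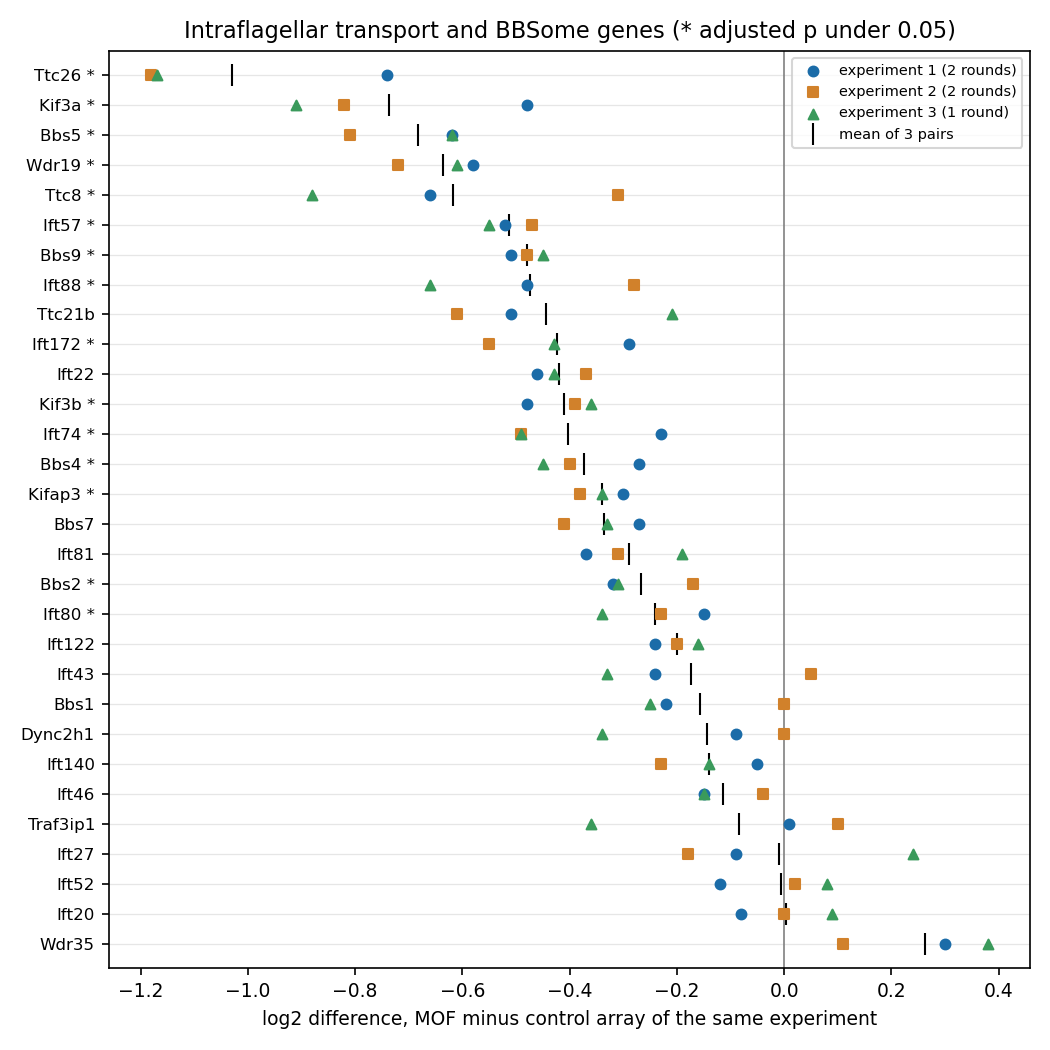
Log2 difference between the MOF and control array of each experiment (symbols) and their mean (bars) for the 30 IFT, ciliary motor and BBSome genes tested; asterisks mark an adjusted p under 0.05. The 15 called genes lie at or below -0.24 in the mean, and Wdr35 alone lies above 0 in every experiment.

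Genes of the transition zone and basal body, which gate and anchor the cilium, were measured as well. Of 22 tested, none was higher and 5 were lower (22.7%, against 6.45% of all genes), with a median of -0.13 against -0.003. Cep290, a gatekeeper at the ciliary base, fell by 0.46 (adjusted p = 0.00655), Tmem67 by 0.42, Tctn2 by 0.38, Sclt1, a distal appendage protein, by 0.37 and Cep164 by 0.24. Another Cep164 probeset differed by 0.03. With the experiment as a block 9 were lower and 2 higher, and the count of lower members ranged from 0 to 5 with 1 array or experiment left out. It was 0 without experiment 3 or either of its arrays. Tmem67, Sclt1 and Cep164 each lost the call in 8 of the 9 fits, and Cep290 and Tctn2 in 4. Of 17 axonemal genes 8 passed the level limit, and Ttll6 and Dnah8, given above, were the called ones (25% higher, against 3.34% of all genes). Foxj1, the switch for motile cilia, differed by -0.01, 0.43 and 0.08 and was not called. Fibroblasts can grow cilia as well. The 11 feeder markers tested had median differences of -0.06, 0.05 and 0.04 in the 3 pairs, and their part in the values of ciliary genes was not tested.

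Of the p53 targets tested, 18 of 27 rose and none fell. p53 is a transcription factor that answers DNA damage and other stress by inducing genes of arrest and death, and ES cells express it at high level. Of 32 targets and feedback genes listed, 28 had a named probeset and 27 passed the level limit, Fas falling under it. Of these 27, 18 were higher (66.7%, against 3.34% of all genes) and none lower, with a median difference of 0.35 in experiment 1, 0.31 in experiment 2 and 0.35 in experiment 3. In all 3 pairs 23 were higher, against 2897 of all 12649 genes, and Ddb2, a damage recognition gene, was lower (-0.14, -0.17 and -0.20). In the block fit 22 were higher and Ddb2 passed as lower. With each array centred on its median the count of higher members was 9, against 1.23% of all genes, and it ranged from 12 to 15 with 1 array or experiment left out.

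Plk2, a polo-like kinase, had values of 8.77, 8.91 and 9.78 in controls and 9.52, 9.63 and 10.45 in MOF arrays. The groups overlapped because experiment 3 was higher in both arms, while the pairs rose by 0.75, 0.72 and 0.67 (mean 0.71, SE 0.08, adjusted p = 2.93e-05). Trp53inp1, a nuclear cofactor of p53, went from 10.40, 10.37 and 11.34 to 11.05, 11.13 and 11.97. The pairs rose evenly, by 0.65, 0.76 and 0.63 (mean 0.68, SE 0.06, adjusted p = 1.20e-06). Pidd1, part of a caspase-2 activating platform, rose by 0.66 (SE 0.08, adjusted p = 6.99e-05) and Btg2, an antiproliferative factor, by 0.59 (SE 0.06, adjusted p = 7.58e-06).

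Among the feedback inhibitors, Mdm2 and Mdm4 were higher as well, while Ppm1d was not called. Mdm2, the ubiquitin ligase of p53, stood at 9.64, 9.69 and 10.43 in controls and 10.13, 10.07 and 10.85 in MOF arrays, a rise by 0.43 (SE 0.09, adjusted p = 0.00643). Each pair rose by about the same amount, at 0.49, 0.38 and 0.42. Mdm4 rose by 0.45 (adjusted p = 0.000336) and Ccng1, a cyclin that acts with Mdm2, by 0.41 (adjusted p = 4.49e-05). Mdm2 lost its call without experiment 1, and Mdm2, Mdm4 and Phlda3 lost theirs after centring. Perp, a membrane protein of p53-dependent death, rose by 0.50, Polk, a translesion polymerase, by 0.49 and Phlda3, an inhibitor of Akt, by 0.46. Perp was not called in 6 of the 9 left-out fits. Death genes of the BCL-2 family were not called, with Bbc3 (Puma) at 0.35, 0.12 and 0.02 and Pmaip1 (Noxa) at 0.24, 0.23 and 0.21. The 18 called genes differed by 0.19 to 0.71 in the mean, and the smallest, Gtse1, passed in none of the left-out fits and not after centring. A pair of p53 core letters, CATG followed after 6 bases of any kind by CATG, on either strand, was found in none of the 19 promoter windows of the list and in 0.228% of all windows. At that share 19 windows are too few to hold a match, so the absence says nothing about p53 sites. Sites with other letters or outside the window were not searched.

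**Figure D4:**
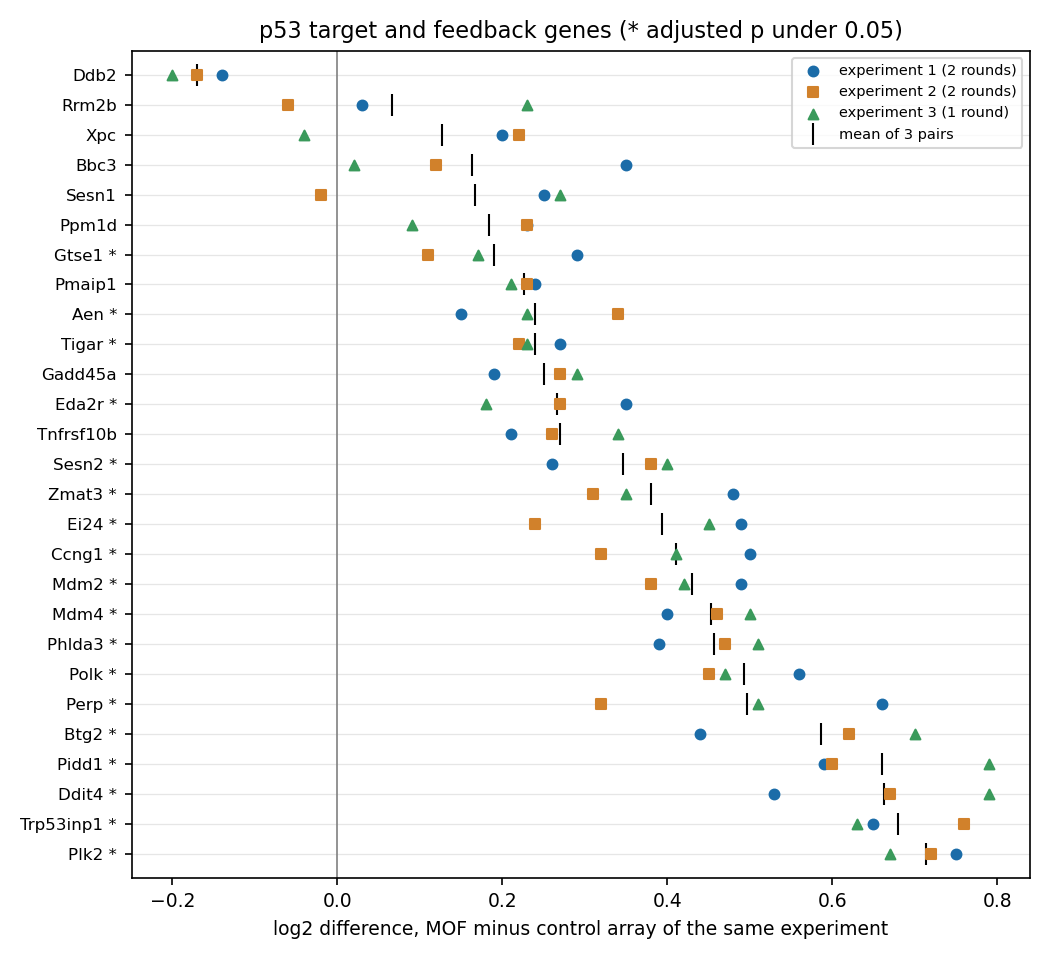
Log2 difference between the MOF and control array of each experiment (symbols) and their mean (bars) for the 27 p53 target and feedback genes tested; asterisks mark an adjusted p under 0.05. The 18 called genes run from Gtse1 at 0.19 to Plk2 at 0.71, and Ddb2 lies below 0 in every experiment.

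Regulators of mTORC1, the kinase complex that couples growth to nutrients, held calls of both signs. Of 36 tested, 5 were higher (13.9%, against 3.34% of all genes) and 3 lower (8.33%, near the 6.45% of all genes), with a median of 0.05. The higher ones were Ddit4 (0.66), which holds the TSC complex active under stress, the GTPase Rragd (0.43), the folliculin gene Flcn (0.43) and its partner Fnip1 (0.32), and Sesn2 (0.35), a leucine sensor. Lower were Tbc1d7, described above, Tsc1, which Tbc1d7 binds (-0.17, adjusted p = 0.0488), and the lysosomal arginine sensor Slc38a9 (-0.39, adjusted p = 0.0271). Ddit4 stood at 7.78, 7.68 and 9.06 in controls and 8.31, 8.35 and 9.85 in MOF arrays. Its control in experiment 3 exceeded the MOF arrays of the others, and each pair rose (adjusted p = 0.00128). With the experiment as a block 7 members were higher and 7 lower, and with any 1 array or experiment left out the count of lower members was 1, since Tsc1 and Slc38a9 passed in none of these fits. Fnip1 was lost in 7 of them, and after centring 2 higher members were left, Ddit4 and Flcn.

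In the autophagy list 2 of 38 genes were higher (5.26%) and 4 lower (10.5%), near the shares of all genes (3.34% and 6.45%), with a median of -0.005. Apart from Atg4a the falls were small, in Pik3c3, the lipid kinase that starts autophagosomes (-0.27), Atg7, the activating enzyme of conjugation (-0.23), and the cargo receptor Tax1bp1 (-0.20). Wdr45 (0.31) and Atg14 (0.25) rose. Of these 6, Atg4a alone passed after centring, Tax1bp1 passed in none of the left-out fits and Atg7 in 1. Among 38 lysosomal genes 4 were higher (10.5%, against 3.34%) and 6 lower (15.8%, against 6.45%), with a median of 0.02. With arrays left out 1 to 3 were higher and 2 to 5 lower, fewest without experiment 3 and without experiment 2. After centring Lamp2 was the 1 higher member. Lamp2, an X-linked membrane protein of lysosomes, rose by 0.62, 0.50 and 0.44 (mean 0.52, SE 0.07, adjusted p = 0.000126), and the protease Ctsd rose by 0.32. Beside Lipa, the acid sphingomyelinase gene Smpd1 fell by 0.18, 0.85 and 0.45, the cathepsin Ctsz by 0.65, 0.48 and 0.33 and the X-linked sulfatase Ids by 0.25, 0.19 and 0.50. Smpd1 was lost in 7 of the 9 left-out fits. Of 19 sterol synthesis genes 3 were lower (15.8%, against 6.45%), led by the X-linked Nsdhl, a decarboxylating dehydrogenase (-0.46, SE 0.06, adjusted p = 7.73e-05), and Dhcr7, the last reductase of the pathway (-0.26). With arrays left out 1 to 2 were lower, and after centring Nsdhl alone.

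Of 38 glutathione and redox genes tested 6 were higher (15.8%, against 3.34% of all genes) and 3 lower (7.89%, near the 6.45% of all genes), with a median of 0.002. With arrays left out 3 to 4 were higher and 2 to 3 lower, and after centring 3 were higher. The 3 lower genes were the mu-class glutathione transferases Gstm5 (-0.87), Gstm4 (-0.52, adjusted p = 0.000118) and Gstm7 (-0.46), which lie in 1 cluster and can share probes. The higher genes included both epoxide hydrolases, Ephx2 and Ephx1 (0.51, 0.38 and 0.74 in the pairs, adjusted p = 0.00124), and Gss, Gsr, Sod1 and Sod2, which rose by 0.36, 0.19, 0.28 and 0.19. Gss and Gstm7 passed in none of the left-out fits, and Gsr was lost in 8 and Sod2 in 7 of the 9. Gsr, Sod1 and Sod2 did not pass after centring. Of 26 genes of the unfolded protein response and its factor ATF4, 3 were higher, Sesn2, Atf3 (0.31) and Ddit3 (0.27), and Aldh18a1 was lower, shares of 11.5% and 3.85% beside 3.34% and 6.45% of all genes. None of the 4 passed after centring, Aldh18a1 passed in none of the left-out fits, Ddit3 in 1 and Atf3 in 3, while Sesn2 passed in all 9.

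Of 46 complex I genes tested 1 was higher and 2 were lower (4.35%, against 6.45% of all genes), with a median of -0.06. In all 3 pairs 20 of them fell, against 3539 of all 12649 genes. Ndufs4, a subunit of the electron input module, fell by 0.55, 0.46 and 0.79 (mean -0.60, SE 0.09, adjusted p = 0.000214). The assembly factor Ndufaf7 fell by 0.30 and Ndufb7 rose by 0.19, and these lost their calls in 8 and 6 of the 9 left-out fits. In the block fit 2 complex I genes were higher and 7 lower (15.2%, against 16.1% of all genes). None of 37 genes of complexes II to V was called by limma (2 higher and 2 lower at an unadjusted p under 0.05), and with the experiment as a block 1 was higher and 2 lower. Of 48 genes of the large mitochondrial ribosomal subunit 6 were lower, among them Mrpl1 (-0.34), Mrpl35 (-0.33) and Mrpl21 (-0.29), and none was higher (12.5% lower, against 6.45% of all genes). Their median was -0.14 against -0.003 for all genes, and 28 fell in all 3 pairs, against 3539 of all 12649 genes. With the experiment as a block 18 were lower (37.5%, against 16.1% of all genes) and 2 higher, and without experiment 3 the count of lower members was 1. Mrpl21 was lost in 7 of the 9 left-out fits, Mrpl1 in 5 and Mrpl35 in 1. Mrpl21 and Mrpl35 did not pass after centring.

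Innate immune genes passed the level limit to unlike degrees. Of genes with a probeset, 11 of 23 interferon, 20 of 22 Toll-like receptor and NF-kB and 9 of 13 MHC class I genes did. Of 26 interferon and sensing genes 11 were tested, and Irf9 alone was called (0.31, a share of 9.09% against 3.34% of all genes). It was called in none of the left-out fits and not after centring. Of 20 Toll-like receptor and NF-kB genes 1 was higher and 1 lower, 5% each way beside 3.34% and 6.45% of all genes. Myd88 fell as given above, and Nfkbia, the inhibitor that NF-kB induces, rose by 0.34, 0.41 and 0.24 (mean 0.33, limma adjusted p = 0.0160). The Nfkbia call was lost in 8 of the 9 left-out fits and after centring. B2m, the light chain of MHC class I, fell by 0.66, 0.65 and 0.36 (mean -0.56, SE 0.10, limma adjusted p = 0.00189). It was the 1 called of 9 MHC class I and antigen loading genes tested (11.1% lower, against 6.45% of all genes). The class I gene H2-Q4, which is not on that list, fell too, by 0.31, 0.63 and 0.75 (mean -0.56, SE 0.07, limma adjusted p = 8.83e-05). In the actin and YAP target list 4 of 21 genes were higher (19%, against 3.34%) and 2 lower (9.52%, against 6.45%). The higher ones were Ptpn14, Ccn1 (0.45, adjusted p = 0.000127), Ajuba (0.32) and Amotl2 (0.24), and with the experiment as a block 10 were higher. Ajuba and Amotl2 were lost after centring and in 6 of the 9 left-out fits, and Vcl passed in none of these. Vcl, the focal adhesion protein vinculin, fell by 0.41 and the cofilin phosphatase Ssh2 by 0.48, where a dimmer Ssh2 probeset differed by -0.33, -1.53 and -1.06. Cfl2, the muscle-type cofilin, belonged to the genes lowered past 1.5-fold in every pair, at 10.34, 10.22 and 10.44 in controls and 9.59, 9.55 and 9.71 in MOF arrays.

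In the MSL complex Msl3, the chromodomain subunit, fell by 0.08, 0.41 and 0.32 (mean -0.27, SE 0.07, adjusted p = 0.0165), a call lost after centring and in 6 of the 9 left-out fits, while the scaffold Msl1 (0.15) and the ligase Msl2 (0.06) were not called. In the NSL complex 3 of 9 genes were higher (33.3%, against 3.34% of all genes), with Kat8 counted among the 9. Kansl2, Kansl1 and the glycosyltransferase Ogt rose by 0.28, 0.22 and 0.21, and Kansl3, Phf20, Wdr5, Mcrs1 and Hcfc1 were not called. Both probesets of Kansl2 rose alike, and another probeset of Kansl1 differed by 0.78, 0.65 and 0.06. None of the higher NSL genes passed once arrays were centred on their medians, and none did without experiment 3 or either of its arrays. Among 16 other MYST acetyltransferase genes and partners Epc1 was higher (6.25%, against 3.34% of all genes). It rose by 0.30, a call lost after centring and in 8 of the 9 left-out fits. None of 7 deacetylase genes of the sirtuin and HDAC families was called by limma (1 lower at an unadjusted p under 0.05). In the block fit 3 of the MYST list were higher (18.8%, against 10.8% of all genes) and 1 deacetylase gene was lower (14.3%, against 16.1%).

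Of 27 pluripotency genes tested none was higher and 2 were lower, Gbx2 (-0.35, adjusted p = 0.0311) and the Nodal co-receptor Tdgf1 (-0.17, adjusted p = 0.0385), with a median of 0.01. Their share of 7.41% lay near the 6.45% of all genes, and Tdgf1 passed in none of the left-out fits and Gbx2 in 1. Pou5f1 stood at 12.05, 12.08 and 12.69 in controls and 11.97, 11.98 and 12.56 in MOF arrays. The pairs differed by -0.08, -0.10 and -0.13, which was not called (adjusted p = 0.267). Nanog differed by -0.14 (SE 0.05, adjusted p = 0.117) and Sox2 by -0.01, and Nanog and Utf1 (-0.25) passed as lower with the experiment as a block. Esrrb (-0.15) and Klf4 (-0.03) were not called either. Among 13 primed epiblast genes 2 were lower (15.4%, against 6.45% of all genes). Lefty2, a Nodal antagonist, fell by 0.28, 0.44 and 0.57 (mean -0.43, SE 0.08, limma adjusted p = 0.00152). The methyltransferase Dnmt3b fell by 0.34, 0.41 and 0.20 (mean -0.32) and was called in none of the left-out fits and not after centring.

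Markers of other fates showed few calls, in lists of 4 to 13 tested genes. Of all genes 3.34% were higher and 6.45% lower, and 10.8% and 16.1% with the experiment as a block. At these shares lists this short hold few calls. Of 11 mesoderm and endoderm genes tested the chemokine receptor Cxcr4 was higher (0.27), a call lost after centring and in 8 of the 9 left-out fits. None of 6 neuroectoderm, 10 trophectoderm, 12 primitive endoderm and 4 genes of 2-cell-like cells was called by limma (1, 0, 1 and 0 at an unadjusted p under 0.05), and with the experiment as a block the numbers called were 1, 2, 1 and 1. Of 13 germline genes the X-linked homeobox gene Rhox9 rose by 0.39 and Mael, which acts in piRNA silencing, fell by 0.53, 0.46 and 0.66 (mean -0.55, SE 0.14, adjusted p = 0.0141), a call lost in 7 of the 9 left-out fits.

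X-linked genes were set beside autosomal ones because the MSL complex of flies acts on the X chromosome. Of 408 X-linked genes tested 12 were higher (2.94%) and 51 lower (12.5%), against 3.34% and 6.27% of 12208 autosomal genes. Their median difference was -0.05, and the X-linked minus the autosomal median was -0.02, -0.06 and -0.05 in pairs 1, 2 and 3. The largest called falls were in Atg4a, the zinc finger gene Zfp280c (-0.85), the meiotic gene Tex11 (-0.83), the kinase gene Stk26 (-0.83) and the mitochondrial carbonic anhydrase Car5b (-0.81). Stk26 fell by 0.54, 0.79 and 1.15 in the pairs and Car5b by 0.60, 0.71 and 1.11. The largest called rises were in the glutamate receptor gene Gria3 (0.61), Lamp2, Renbp (0.45), Rhox9 and Fam120c (0.36). Gria3 rose by 0.65, 0.54 and 0.65, from 5.96, 6.06 and 6.64 to 6.61, 6.60 and 7.29, and its groups overlapped only through the control of experiment 3. Renbp and Rhox9 were not called once arrays were centred on their medians, and Gria3 and Rhox9 were not called without the level limit. With arrays left out Gria3 passed in none of the 9 fits, and the call was lost in 6 of them for Tex11 and Rhox9, in 5 for Stk26, in 4 for Car5b, in 3 for Renbp and in 2 for Fam120c. Those of Renbp were the fits without an array of experiment 3, and those of Fam120c without MOF replicate 2 or experiment 2.

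Promoters were described by their CpG dinucleotides, which are frequent at the starts of most broadly expressed genes. In the window from 250 bases before to 50 after the start, the median was 21 CpG over the 10102 promoters of genes tested, with quartiles of 13 and 29. It was 19 for genes called lower and 21 for genes called higher. For the 21 promoters of genes past 1.5-fold lower in every pair it was 12, and for the 7 of those past 1.5-fold higher it was 8. These medians were not tested. The 150 bases before the start of Dglucy (GRCm38.p6 from RefSeq, chr12:100778907-100779056, plus strand), the gene that rose most, show the low end, with each CpG in capitals.
Dglucy: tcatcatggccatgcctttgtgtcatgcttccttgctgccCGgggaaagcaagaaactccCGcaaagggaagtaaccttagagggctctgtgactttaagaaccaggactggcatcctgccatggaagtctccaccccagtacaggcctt
This stretch holds 2 CpG, and the whole window of Dglucy holds 3. The ETS motif CCGGAAGT (reverse ACTTCCGG) was found in 12.2% of promoters of genes called lower, 5.14% of those called higher and 7.8% of all.

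Whether the response differed between 2 rounds and 1 round of RNAi was asked with the interaction of the fit that has the experiment as a block. It called 6 genes (0.0474%). With 1 pair given 1 round, the rounds, the experiment and the array set cannot be told apart. That pair adds nothing to the spread used, which came from the other arrays of the series. Usp17ld, a deubiquitinase of a gene family with near-identical copies, differed by -0.25, -0.23 and 2.15. Its values were 7.32, 6.71 and 6.96 in controls and 7.07, 6.48 and 9.11 in MOF arrays, so that a single array stood apart. Tns1, a focal adhesion protein, differed by -0.29, -0.03 and 1.55 at the probeset tested. At 5 other Tns1 probesets the difference in experiment 3 was 0.35 to 0.61. These probesets differed by -0.08 to 0.22 in experiment 1 and by 0.08 to 0.34 in experiment 2. Each of them had its largest difference in experiment 3, though smaller than that of the probeset tested.

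Aldh3b3, an aldehyde dehydrogenase, differed by -0.19, -0.24 and 0.76, where its other probesets had 0.28 and 0.14 in experiment 3, and the kinase gene Fgr by -0.29, -0.18 and 0.42. Scd2, the desaturase that makes monounsaturated fatty acids, went from 11.24 and 11.16 to 10.53 and 10.40 after 2 rounds and from 11.13 to 11.28 after 1. It fell in both experiments with 2 rounds and not in the other. Apod, a lipid carrier, fell by 0.18, 0.18 and 0.91. On the 6 arrays alone no gene was called by limma, with 710 genes at an unadjusted p under 0.05 against 1234 in the fit of all arrays. Genes given above as the largest changes, Dglucy and Ttc26 among them, were not called in this contrast.

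**Figure D5:**
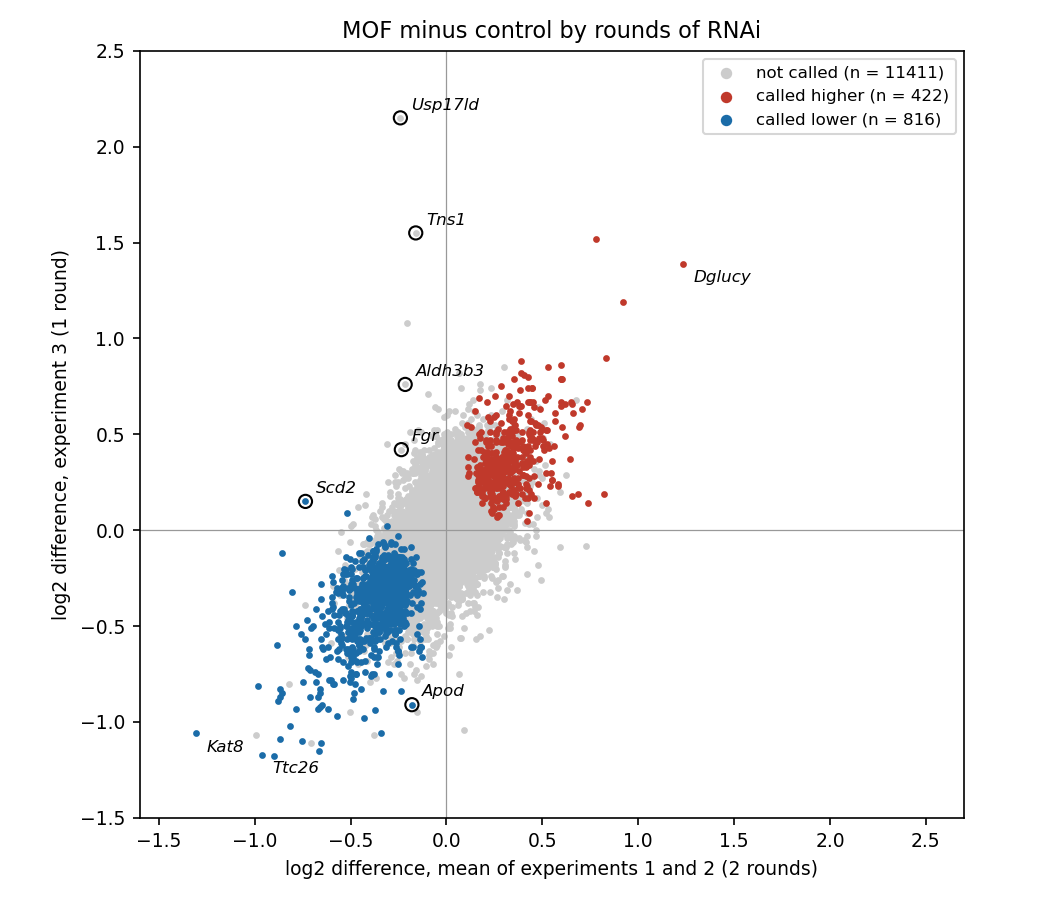
Log2 difference in experiment 3 (1 round, vertical) against the mean of experiments 1 and 2 (2 rounds, horizontal) for 12649 genes, with called genes in colour and the 6 genes whose response differed between them circled. Most called genes lie in the quadrants of equal sign, while the tested probesets of Usp17ld and Tns1 rise in experiment 3 alone, by 2.15 and 1.55.

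The same knockdown was also done in the male lines WD44 and E14, 2 pairs each, where Kat8 left was 51.8% and 60.3% in WD44 and 59% and 66.4% in E14. The Kat8 difference was -0.84 in WD44 and -0.68 in E14, and the PGK12.1 difference minus their mean was -0.47 (limma adjusted p = 0.0509, past the threshold in the block fit). Line, sex, depth, rounds and array set cannot be told apart. Array medians were 7.89 to 7.96 in WD44 and 6.76 to 6.78 in E14, beside 6.23 to 6.5 in the 6 PGK12.1 arrays, so that differences are compared across unlike scales. The response differed between PGK12.1 and the mean of the male lines for 17 genes (0.134%), 14 with a higher difference in PGK12.1 and 3 with a lower one. Dglucy differed by 0.07 in WD44 and 0.27 in E14, a gap of 1.12 to PGK12.1 (adjusted p = 0.00130). The gap is the PGK12.1 difference minus that mean. For Ttll6 it was 0.68, for Ptp4a3 0.56, for Btbd19 0.45 and for Dennd2c 0.42. Nsdhl differed by 0.16 in WD44 and -0.03 in E14, a gap of -0.52 (adjusted p = 0.00530), and the amino acid transporter Slc38a5, which fell by 0.69 in PGK12.1, had a gap of -0.72. The MHC class I gene H2-Q4, of a family that can share probes, had a gap of -0.59. In the block fit 459 genes differed (3.63%), with arrays centred 3, and with 1 array left out 4 to 11, the fewest without MOF replicate 2.

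The 34 genes past 1.5-fold in every PGK12.1 pair were followed in the other knockdowns of MOF. They include Kat8, the siRNA target, which was called lower in each of these. How often all genes kept their sign in these comparisons was not counted. In WD44, 32 had the same sign and 6 were called, where 0.704% of all genes were, and in E14, 30 had the same sign and 7 were called (0.83% of all genes). In PGK12.1 cells given siRNA against MOF and MSL1 together, with 56.3% and 52.8% of Kat8 left and other control arrays, 32 had the same sign and 24 were called (12% of all genes). These 2 double-target arrays were set against controls of 5 experiments, some of which have array medians of 6.76 to 6.77 beside 6.39 to 6.42 for the 2 experiments with the double target, and the median over all genes was -0.10. In the block fit it was 0.002, 32 of the 34 genes had the same sign and 21 were called (8.12% of all genes), and the calls over all genes changed from 407 higher and 1115 lower to 518 and 509. Block values are therefore given for the double target. For the 25 lower genes the median difference was -0.37 in WD44, -0.37 in E14 and -0.35 with the double target. For the 9 higher genes it was 0.12 in WD44, 0.36 in E14 and 0.52 with the double target. The IFT and BBSome genes had medians of -0.27 in WD44, -0.25 in E14 and -0.14 with the double target, beside -0.34 here (-0.29 with the double target without the block). The p53 targets had medians of 0.08, 0.13 and 0.19, beside 0.35 (0.16 without the block). Over all genes the medians were -0.03 in WD44 and 0 in E14. These medians were not tested against each other.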

How the data were processed

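The authors deposited log2 values for every probeset of each array. They were made from total RNA on Affymetrix mouse gene arrays with Affymetrix Expression Console and RMA, per the submitters' processing notes. For tool versions and genome build, nothing was given in the sources used here. Medians of arrays step between sets of experiments, which levels compared across sets carry. Of 35556 probesets, 21789 had 1 gene symbol in the platform annotation, 1621 several and 12146 none. Symbols were updated through RefSeq (GRCm38.p6), which matched 21698. Arrays were grouped by their titles.

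The limma package 3.58.1 (R 4.3.3) was fitted to all 27 arrays, with group means and a separate term for 2 rounds of RNAi (16 residual degrees of freedom). Probesets with 1 symbol and a mean log2 of at least 6 over the 6 arrays entered, and 1 probeset per gene, the brightest, entered the Benjamini-Hochberg adjustment over 12649 genes. The threshold was an adjusted p under 0.05, and "higher", "lower", "rose" and "fell" mark genes past it unless a pair is named. Steps between sets enter the shared spread in this fit. The paired alternative took the experiment as a block, which left 9 residual degrees of freedom. The labels pair the arrays by experiment, and deviations from the group means correlated at 0.684, 0.637 and 0.866 within pairs 1, 2 and 3. Between experiments 1 and 2 they correlated at 0.605 and 0.675, so that these values set experiment 3 apart from the others and the pairing of 1 and 2 rests on the labels. Because array number limits the precision, no depth is given. Lists were described by counts and medians without a set test. Genes named were Kat8, the 15 largest called rises and falls of common sign, 5 X-linked genes each way, up to 6 members of a list by smallest p and those whose role is described, and up to 5 each way of the contrasts between rounds and lines. Members and lists were chosen with earlier results of these data known. Genes of chromosome 13 were singled out after their values were seen. The fit was tested on simulated data. Other scalings, level limits, weights and left-out arrays were tried.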

Additional observations from a re-analysis of the deposited data

Results flagged for a closer look

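A difference between experiments 1 and 2 (2 rounds of RNAi) and experiment 3 (1 round) passed an adjusted p under 0.05 for 6 genes in the limma fit with the experiment as a block. The mean MOF minus control difference of experiments 1 and 2 minus that of experiment 3 was 0.73 for Apod, which fell more with 1 round. It was -2.39 for Usp17ld, -1.71 for Tns1, -0.975 for Aldh3b3, -0.885 for Scd2 and -0.655 for Fgr. For Usp17ld, Tns1, Aldh3b3 and Scd2 the MOF array of experiment 3 was the highest of the 6, for Scd2 narrowly, at 11.28 beside 11.24 in the control of experiment 1. Rounds, experiment and array set cannot be told apart. The arm with 1 round is a single pair, so its own spread is not measured and the spread used came from the other arrays of the series. None of the 6 passed on the 6 arrays alone.

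A difference between the PGK12.1 response and the mean response of the male lines WD44 and E14 passed for 17 genes, of which up to 5 each way are named. The PGK12.1 value minus the male mean was 1.12 for Dglucy, 0.68 for Ttll6, 0.559 for Ptp4a3, 0.45 for Btbd19 and 0.423 for Dennd2c. It was -0.723 for Slc38a5, -0.586 for H2-Q4 and -0.524 for Nsdhl. Kat8 itself stood at -0.47 in this contrast (limma adjusted p = 0.0509), and the part of knockdown depth and of array set in these differences was not tested. Of these 8 genes Dglucy and Slc38a5 kept their call with arrays centred on their medians. Groups of 3 arrays are too small for a test of single outlying arrays, which was not made.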

How the results depend on the processing

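Kat8 (-1.15 to -1.35) and the X-linked minus the autosomal median (X-linked genes, -0.03 to -0.055) kept their direction under the alternatives run for each, and no result reversed. The number of genes changed after MOF knockdown in PGK12.1 (1238) depended on the fit. It was 3405 with the experiment as a replicate block, 3598 with the block and array centring, 2799 with a term for the array sets, 2129 on the 6 arrays alone with the rounds term, 3392 with array weights, 2284 after quantile normalization and 1870 after cyclic loess. All 1238 genes were also called with the block. With 1 array or experiment left out the count was 412 to 886, lowest without experiment 2. The genes past 1.5-fold in every pair numbered 60 in place of 34 after quantile normalization. The contrast between rounds called 0 in place of 6 genes on the 6 arrays alone. The contrast with the male lines called 459 with the block, 3 with centring and 4 to 11 with an array left out, in place of 17. Single named genes kept sign and call in 557 of 573 other settings and lost the call in 16, and in 296 of 363 left-out settings, losing it in 67. The left-out settings count the fit without experiment 3 more than once. The block removed no call of the 35 genes named for the comparison. The block with centring and the centring on tested probesets were chosen after seeing the data, as were the left-out counts of lists and the block values of the double target. The cause of these differences was not tested. Precision is limited by 3 arrays a group.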

Other observations

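Zinc finger genes of chromosome 13 were looked at after Zfp72 and Zfp759 were seen among the largest falls. Many of these genes encode KRAB zinc finger proteins, a family that silences transposable elements and that sits in clusters of recent copies. Of 22 genes on chromosome 13 with a symbol starting in Zfp, 8 were lower and 1 higher, with a median of -0.22. The median was -0.11, -0.235 and -0.30 in experiments 1, 2 and 3. Zfp595 fell by 0.52, 0.84 and 0.79, Zfp729b by 0.27, 0.77 and 0.57 and Zfp58 by 0.52, 0.56 and 0.29. The higher gene was Zfp367, at 0.26, 0.49 and 0.14. Of 260 such genes on other chromosomes 20 were lower and 5 higher, with a median of -0.033. Probes of near-identical copies can share signal, so that the 8 genes may not be 8 separate measurements. The set was chosen on these values, and its counts were not tested.

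Several groups that many cells use showed no call in PGK12.1 by limma. Of 28 mitosis and kinetochore genes and 20 glycolysis and hypoxia genes none passed, where 3.34% of all genes were higher and 6.45% lower. At an unadjusted p under 0.05, 3 of the former were higher and 1 lower, and 2 of the latter were lower. In the block fit 1 of the former was higher and 2 lower, and 2 of the latter were lower, beside 10.8% higher and 16.1% lower of all genes. Of 27 genes of replication licensing Orc3 was lower (-0.41, a share of 3.70% against 6.45% of all genes). The call was lost in 7 of 9 fits with 1 array or experiment left out. Among 36 DNA repair and checkpoint genes Fanci rose by 0.35, and Brca2, Ogg1 and Fancd2 fell by 0.33, 0.27 and 0.24. The shares of 2.78% higher and 8.33% lower lay near the 3.34% and 6.45% of all genes. Ogg1 passed in none of those 9 fits, Fancd2 was lost in 6, and Fanci, Brca2 and Fancd2 were lost with arrays centred on their medians. Of 33 aminoacyl-tRNA synthetase genes Lars2 (-0.37) and Wars (-0.27) were lower (6.06%, near the 6.45% of all genes), lost in 1 and 3 of the 9 fits. Calls were less frequent among dim genes. With the genes in 3 groups of equal size by mean level, 1.68% of the lowest group were called higher and 3.75% lower, against 4.15% and 8.94% of the middle group and 4.17% and 6.66% of the top group.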
